A study of Mus musculus with 20 samples.

Results

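Bladder tumors were compared with control bladders, which made up 12 of the 20 arrays of the series. The members were taken from the sample labels: all 7 arrays of bladder tumor and all 5 of control bladder. The question was which genes and gene families separate a tumor-bearing bladder from a normal one in this mouse model. All animals were FVB/N mice that carried a germline loss of p107, a relative of Rb, and floxed alleles of Rb among others, so the controls shared the p107 loss. Tumor mice had also received an adenovirus coding for Cre recombinase in the bladder, which recombines floxed alleles in the cells it enters. Controls are described as bladder alone. The labels give no age, sex or time, and do not tie each numbered sample to an animal of its own; the p-values therefore cover only the spread among the arrays, part of which may be technical. The tissue was fixed in formalin and embedded in paraffin, and 12 ng of its RNA went onto each whole-transcript array. Values are log2 intensities as the authors normalized them, so that a difference of 1 is 2-fold, and the number of arrays limits the precision. Of 65956 rows on the array, those with a single gene symbol gave 30142 genes.

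The 12 arrays were of unequal kind. In bladder tumor 3, 4 and 5 and control bladder 4, 5 and 6, the deviations of genes from their mean over all 20 arrays correlated with those of no other array above 0.14. They are called near-mean arrays here. Results are therefore given over the 12 arrays, over the other 6, or over both. The other 6 are bladder tumor 1, 2, 6 and 7 against control bladder 1 and 2. Many genes and lists below are described over these 6 alone, Hhip, Bmp5, Acta2 and C1qb among them. Over 12 arrays these 4 genes differed by -1.57, -1.43, -1.46 and 0.58, less than over 6. The 6-array comparison has only 2 controls, and a sex difference lies on top of it. Xist, the RNA that coats the inactive X chromosome of females, read 10.76 and 10.88 in control bladder 1 and 2. The 4 tumors read 4.52 to 4.89, and the near-mean arrays 5.85 to 6.09. Kdm6a, an X-linked gene that escapes inactivation and was chosen after its values were seen, read 6.67 in both controls and 6.04 to 6.22 in the 4 tumors. The Y-linked genes Eif2s3y, Uty and Kdm5d read 5.02 to 5.28 in these controls and 5.65 to 6.52 in bladder tumor 1, 2 and 7. Bladder tumor 6 read low for Xist (4.52) and also for Eif2s3y (4.90), Uty (5.01) and Kdm5d (4.97). For every comparison with control bladder 1 and 2, tumor and sex cannot be told apart. Of the targeted genes, Rb1 did not separate the groups. The p107 loss was shared by both groups, so no separation by its gene was to be looked for. Rb1 read 5.99 ± 0.33 in tumor (SD, n = 7) and 6.18 ± 0.19 in control (n = 5), and Rbl1, the p107 gene, 6.63 ± 0.29 and 6.51 ± 0.23. The sources used here do not say whether their probes lie in the deleted parts, so these values check nothing.

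Some background helps to read the gene groups. The bladder is lined by urothelium, whose outermost cells are covered by plaques of uroplakins, above a lamina propria and a thick coat of smooth muscle. Basal urothelial cells secrete Sonic hedgehog, and stromal cells beneath answer it by switching on Ptch1, Hhip and Gli1 and by making BMP ligands, which favour urothelial differentiation. A molecular clock runs in nearly all tissues: the proteins of Arntl and Clock switch on the Per, Cry and Nr1d genes and the transcription factors Dbp, Tef and Hlf, and the products of these genes feed back on it.

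No gene passed the test over the 12 arrays. limma called 0 of 30142 genes (0.0%) at an adjusted p under 0.05, and 1291 (4.28%) had an unadjusted p under 0.05, of which 700 (2.32%) were higher in tumor and 591 (1.96%) lower. A mean difference of at least 1 was reached by 26 genes on the higher side (0.0863%) and 37 on the lower side (0.123%). Over the 6 arrays limma called 1 gene (0.00332%), Xist, with a difference of -6.08 (tumor minus control, standard error 0.22, adjusted p = 3.59e-06). Here 1161 genes (3.85%) had an unadjusted p under 0.05, with 516 higher (1.71%) and 645 lower (2.14%). A difference of at least 1 was reached by 214 genes on the higher side (0.71%) and 334 on the lower side (1.11%). Because only 2 controls enter, the 4 tumors lay above both controls in 2348 genes (7.79%) and below both in 1380 (4.58%). Over the 12 arrays such a separation held for 32 genes on the higher side (0.106%) and 22 on the lower side (0.073%). The mean was higher in tumor for 53% of all genes over 12 arrays and for 61.1% over 6. The 1420 chemosensory receptor genes, which the bladder is not known to use, gave 849 and 921 higher means, and their median difference was 0.05 over 12 arrays and 0.09 over 6, beside 0.01 and 0.06 for all genes. Among the genes named here, the adjusted p over 12 arrays ran from 0.788 to 0.999. A difference described below as higher or lower is one of means that did not pass, Xist excepted.

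**Figure D1:**
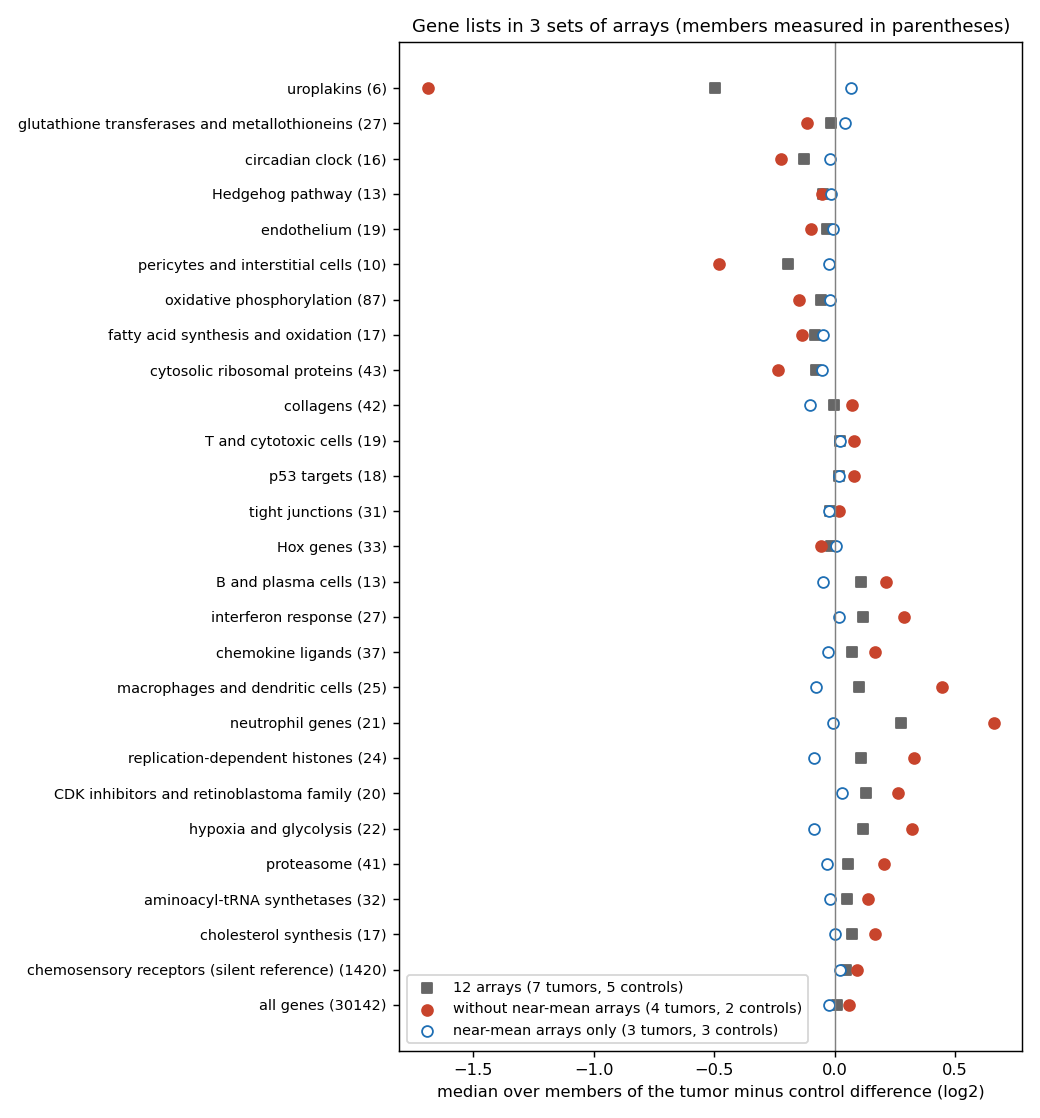
Median of the tumor minus control differences (log2, x axis) over the measured members of 26 gene lists and over all genes, in the 12 arrays (squares), the 6 arrays without the near-mean ones (filled circles) and the 6 near-mean arrays alone (open circles). Neutrophil genes stand furthest to the right and uroplakins furthest to the left in the 6 arrays, and medians in the near-mean arrays lie between -0.10 and 0.07.

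Genes that answer Hedgehog signals had lower means in tumor. Ptch1, the Hedgehog receptor and itself a target of the pathway (chromosome 13), read 8.47 and 8.15 in control bladder 1 and 2. It read 5.74, 5.68, 5.70 and 6.74 in bladder tumor 1, 2, 6 and 7, so all 4 tumors lay more than 1 below both controls. In the near-mean arrays the controls read 6.34 to 6.57 and the tumors 6.11 to 6.29, without overlap. That comparison has few arrays on each side, and the share of all genes that separated in it was not counted. Over the 12 arrays the ranges overlapped only through bladder tumor 7. The difference was -1.13 over 12 arrays (standard error 0.33, limma's unadjusted p = 0.0033) and -2.34 over 6 (standard error 0.28, unadjusted p = 8.38e-06, adjusted p = 0.126). The adjusted p of the 6-array difference ran from 0.000476 to 1.0 over the alternatives tried. Hhip, a decoy receptor that is also a Hedgehog target (chromosome 8), read 9.29 and 8.78 in the controls. It read 4.64, 4.55 and 4.38 in bladder tumor 1, 2 and 6 and 7.75 in bladder tumor 7. Its difference over 6 arrays was -3.71 (standard error 0.88), and -4.51 without bladder tumor 7. The near-mean arrays gave -0.02 for Hhip, where all 6 read 5.70 to 6.00. Gli1, a transcription factor switched on by the pathway, differed by -0.49 over 6 arrays, with values that overlapped. Shh, the ligand, read 5.72 and 5.75 in the controls and 4.80 to 6.28 in the 4 tumors. In the 6 arrays, 8 of the 13 pathway genes measured had lower means and 5 higher ones. An unadjusted p under 0.05 was found for 3 on the lower side and 0 on the higher side. For all genes the shares were 2.14% and 1.71%. Over 12 arrays the counts were 2 and 0, beside 1.96% and 2.32% of all genes. The median of the list was -0.05 in both, beside 0.01 and 0.06 for all genes.

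Among BMP and TGF-beta genes the ligand Bmp5 stood apart. Bmp5 (chromosome 9) read 9.90 and 9.59 in control bladder 1 and 2 and 6.61, 5.08, 4.65 and 8.73 in bladder tumor 1, 2, 6 and 7. All 4 tumors were lower than both controls, with a mean difference of -3.48 (standard error 0.90), and the near-mean arrays differed by 0.07. Id2, an inhibitor of helix-loop-helix factors that BMP signals induce, read 7.20 and 7.50 in the controls, 5.23 to 5.58 in bladder tumor 1, 2 and 6, and 7.66 in bladder tumor 7. Of the 46 genes of this list, 4 had an unadjusted p under 0.05 on the lower side in the 6 arrays. On the higher side 0 did. Of all genes, 2.14% did on the lower and 1.71% on the higher side. The median of the list was -0.01.

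Several receptors and ion channels of muscle, nerve and stroma followed Bmp5. Avpr1a, the vasopressin receptor of smooth muscle and vessels (chromosome 10), read 8.03 and 8.20 in control bladder 1 and 2 and 4.59, 4.18, 4.30 and 5.81 in the 4 tumors. The difference was -3.39 over 6 arrays (standard error 0.55, adjusted p = 0.619) and -1.63 over 12. Ecm2, a matrix protein, read 6.28 and 6.12 in the controls and 4.64 to 5.37 in the tumors. With bladder tumor 7 left out, the 6-array fit called 59 genes, all lower in tumor, and array weights called 48, of which 42 were lower; 25 genes were in both sets. Of the 59 called among 30142 genes, 5 were on the smooth muscle list, the most of any list. The list of proteoglycans and fibulins held 3, and the Hedgehog, potassium channel and clock lists 2 each. The 59 included Xist, Ptch1, Hhip, Bmp5, Avpr1a, Ecm2, Dbp, Nr1d1, Prelp, Fbln1, P2rx1, Kcna1 and Snx31. Also among them were genes chosen here after their values were seen. Pde5a, the phosphodiesterase that breaks down cyclic GMP in smooth muscle, read 9.18 and 9.07 in the controls, 5.33 to 5.89 in bladder tumor 1, 2 and 6, and 8.67 in bladder tumor 7. Calcrl, the receptor subunit for adrenomedullin and CGRP, read 7.90 and 7.28 against 5.49 to 6.81 in the 4 tumors. Scn7a, a sodium channel of glia and sensory nerves, read 8.19 and 8.11 against 5.11 to 7.47. Slitrk6, Meis1 and Lepr, the leptin receptor, differed by -2.58, -1.28 and -1.84 over the 6 arrays, and each of the 4 tumors was below both controls in all 3 genes. Markers of muscle went with these genes: the mean of the 16 smooth muscle genes was 8.33 and 8.36 in control bladder 1 and 2, 5.92, 5.89 and 5.65 in bladder tumor 1, 2 and 6, and 9.21 in bladder tumor 7. Bladder tumor 7 thus read above the controls for muscle and below them for Ptch1, Hhip, Bmp5, Avpr1a, Pde5a and Calcrl. In bulk tissue, fewer cells of a type and less RNA per cell cannot be told apart.

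**Figure D2:**
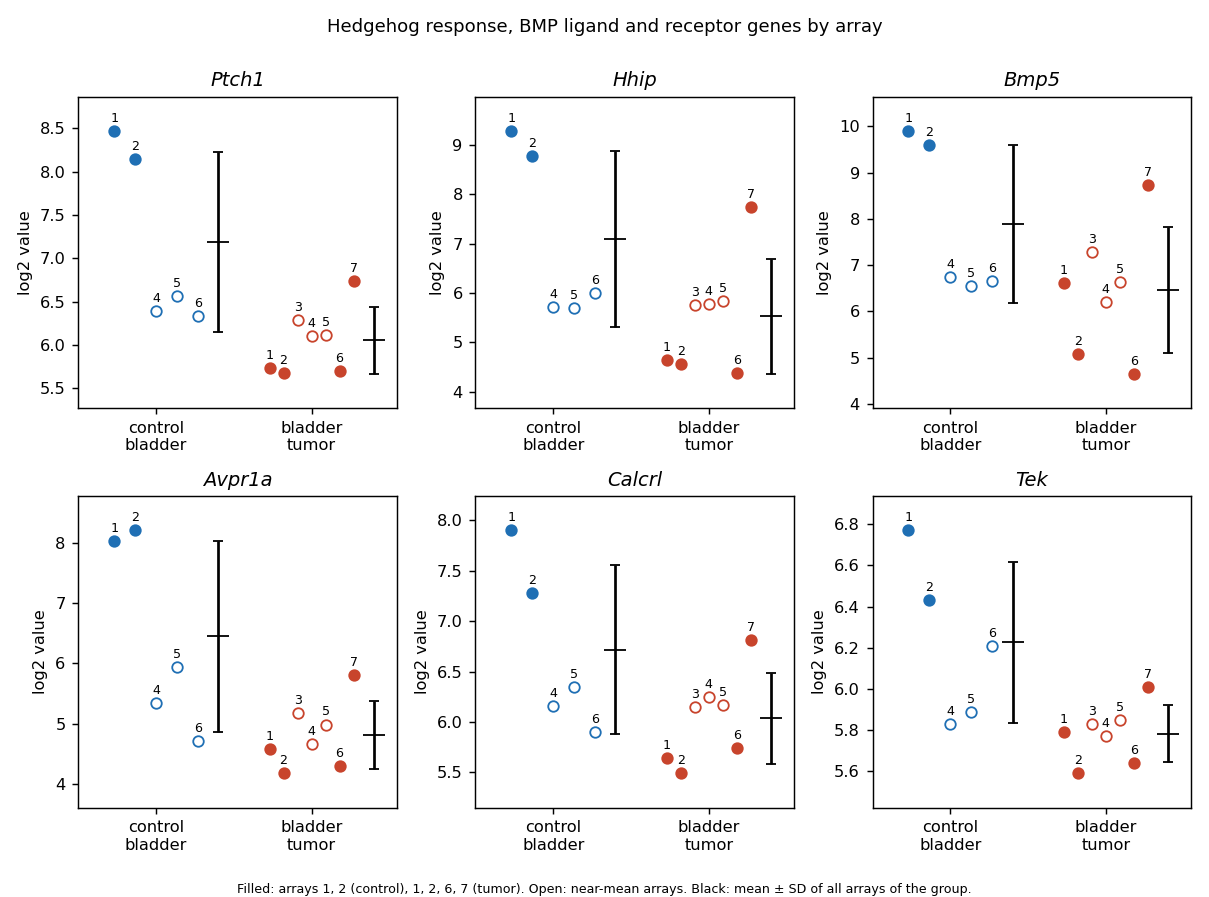
Log2 values (y axis) of 6 genes in each array of control bladder (blue) and bladder tumor (red), with the replicate number above each point; open circles are near-mean arrays and black bars the mean ± SD of the whole group. In every panel control bladder 1 and 2 lie above all 4 filled tumor points.

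Potassium channels and purinergic receptors held a few members of the same kind. Kcna1, a voltage-gated channel of nerve, read 4.43 to 5.38 in the 4 tumors, against 5.74 and 5.86 in the 2 controls of that comparison. Kcnmb1, the smooth muscle subunit of the large-conductance calcium-activated channel, read 6.57 and 6.63 against 5.38, 5.24 and 4.84 in bladder tumor 1, 2 and 6 and 6.52 in bladder tumor 7. In the 6 arrays, 7 of the 91 potassium channel genes had an unadjusted p under 0.05 on the lower side, beside 2.14% of all genes. On the higher side 1 did, beside 1.71%. The median of the list was 0.04. P2rx1, the ATP receptor through which nerves contract the bladder, read 7.67 and 7.81 in the controls, 4.85 to 5.21 in bladder tumor 1, 2 and 6, and 8.82 in bladder tumor 7. The 21 muscarinic, purinergic and adrenergic receptors as a list had a median of 0.02, with 0 at an unadjusted p under 0.05 in either direction.

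Clock output genes had lower means in tumor and their activator a higher one. The labels give no time of tissue collection, so a difference in that time cannot be told apart from tumor. Dbp, a transcription factor driven directly by the clock (chromosome 7), read 7.34 and 6.92 in control bladder 1 and 2 and 5.79, 5.52, 5.37 and 5.94 in bladder tumor 1, 2, 6 and 7. The near-mean controls read 6.05 to 6.33 and the near-mean tumors 5.38 to 6.07, which overlapped narrowly. The difference was -0.82 over 12 arrays (standard error 0.20, limma's unadjusted p = 0.000885) and -1.47 over 6 (standard error 0.21, unadjusted p = 3.34e-05, adjusted p = 0.252). Over the alternatives tried, the adjusted p of the 6-array difference ran from 0.0157 to 1.0. Nr1d1, the nuclear receptor REV-ERB alpha that represses Arntl (chromosome 11), read 7.08 and 6.92 in the controls and 5.15, 5.01, 5.11 and 6.28 in the 4 tumors. Its difference was -1.62 over 6 arrays and -0.01 in the near-mean arrays. Per3, a period gene (chromosome 4), read 6.25 and 5.78 in the controls and 5.22 to 5.34 in the tumors. Hlf, a relative of Dbp, read 6.04 and 5.93 in control bladder 1 and 2, 5.54 to 5.76 in the other controls and 5.31 to 5.59 in all 7 tumors. It differed by -0.35 over 12 arrays (unadjusted p = 0.00166) and had the same sign, -0.21, in the near-mean arrays. Nr1d2, a relative of Nr1d1, Tef and Bhlhe41, a repressor in the clock, were lower in the 4 tumors than in both controls as well, with mean differences of -0.66, -0.47 and -0.62. Bhlhe41 differed by -0.22 without control bladder 1 and by -1.02 without control bladder 2. In the near-mean arrays the differences were of opposite sign for Per3 (0.09), Bhlhe41 (0.09) and Nr1d2 (0.01) and -0.05 for Tef. Hlf, Nr1d2, Tef, Bhlhe41, Arntl and Per1 were named after their values were seen. Arntl, which codes for the activator BMAL1 (chromosome 7), read 5.52 and 5.84 in the controls and 6.19, 6.17, 6.60 and 5.95 in the 4 tumors, a difference of 0.55 over 6 arrays and 0.29 over 12.

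Of the 16 clock genes measured, 7 had an unadjusted p under 0.05 on the lower side in the 6 arrays, beside 2.14% of all genes, and 1 on the higher side, beside 1.71%. Below both controls in all 4 tumors lay 8, beside 4.58% of all genes, and 1 lay above, beside 7.79%. Over 12 arrays 4 were lower and 1 higher at that level, beside 1.96% and 2.32% of all genes. The median was -0.13 over 12 arrays and -0.22 over 6, and it stayed between -0.32 and -0.16 when each of the 6 arrays was left out. It was -0.02 in the near-mean arrays. Nfil3, a repressor of the genes that Dbp activates, was led by bladder tumor 6 (6.81) and read 4.75 to 5.25 in the other 5 of these arrays. Per1, a period gene that also answers acute stimuli, read 5.87 and 5.62 in the controls and 5.71 to 6.24 in the tumors, with no separation.

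Promoter windows of clock genes are shown because members of the feedback loop differed in opposite directions. Each is 300 bases long, from 250 before the annotated start to 50 after it, from RefSeq on the build GRCm38.p6, and 14 of the 16 measured clock genes had such an entry. Capitals mark a match to a clock motif on either strand. These were the E-box CACGTG, bound by the product of Arntl with that of Clock, its variant CACGTT, the D-box TTATGTAA, bound by Dbp, Tef and Hlf, and the ROR element ANTAGGTCA, bound by Nr1d1 and Nr1d2. No match overlapped another in the 4 windows shown. Nr1d1 lies at chr11:98775328-98775627 on the minus strand, Per3 at chr4:151044616-151044915 on the minus strand, Bhlhe41 at chr6:145865371-145865670 on the minus strand and Arntl at chr7:113207261-113207560 on the plus strand.
Nr1d1: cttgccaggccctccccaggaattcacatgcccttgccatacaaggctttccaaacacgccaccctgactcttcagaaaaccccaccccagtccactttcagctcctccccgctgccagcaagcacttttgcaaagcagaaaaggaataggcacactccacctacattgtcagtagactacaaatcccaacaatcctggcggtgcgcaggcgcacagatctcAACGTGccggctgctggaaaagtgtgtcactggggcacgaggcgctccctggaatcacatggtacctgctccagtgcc
Per3: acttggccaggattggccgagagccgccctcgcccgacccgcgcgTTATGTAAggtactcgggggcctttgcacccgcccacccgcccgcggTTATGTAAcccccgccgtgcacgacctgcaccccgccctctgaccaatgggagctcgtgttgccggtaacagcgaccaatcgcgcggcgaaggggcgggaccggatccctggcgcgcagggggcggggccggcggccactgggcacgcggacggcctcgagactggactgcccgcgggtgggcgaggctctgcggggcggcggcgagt
Bhlhe41: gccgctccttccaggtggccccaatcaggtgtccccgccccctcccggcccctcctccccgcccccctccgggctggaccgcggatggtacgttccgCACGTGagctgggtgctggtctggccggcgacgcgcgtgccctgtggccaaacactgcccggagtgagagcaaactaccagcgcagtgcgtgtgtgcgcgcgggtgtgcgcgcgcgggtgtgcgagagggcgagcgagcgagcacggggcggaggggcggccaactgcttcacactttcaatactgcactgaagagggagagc
Arntl: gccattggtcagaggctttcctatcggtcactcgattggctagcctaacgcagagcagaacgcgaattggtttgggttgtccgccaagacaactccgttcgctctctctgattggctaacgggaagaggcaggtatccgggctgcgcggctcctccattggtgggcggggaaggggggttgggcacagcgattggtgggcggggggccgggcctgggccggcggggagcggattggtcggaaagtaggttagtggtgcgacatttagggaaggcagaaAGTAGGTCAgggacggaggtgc
Nr1d1 held 1 variant E-box on the opposite strand, Per3 held 2 D-boxes, Bhlhe41 held 1 E-box and Arntl held 1 ROR element. Per3 and Bhlhe41 were lower in the 4 tumors than in both controls, as was Nr1d1, and Arntl was higher. Matches also lay in genes without separation: the window of Per1, whose groups overlapped, held an E-box, and that of Nfil3, which overlapped as well, a ROR element. The window of Cry1 held an E-box too, and the windows of Cry1 and Cry2 held its variant. Values of Cry1 and Cry2 are not given here, so whether they separated is left unsaid. Both windows of Tef, which was lower in the 4 tumors than in both controls, held an E-box and are not shown. The 4 windows shown were chosen for holding a match in a gene that separated the 6 arrays, and are not all of that kind. Arntl had another window, which held none of these letters. Of 19 windows of clock genes, 5 held the E-box, 3 its variant, 1 the D-box and 2 the ROR element. Among all 32851 promoter windows the shares were 7.15%, 4.68%, 0.938% and 0.661%. The window of Dbp held none of these letters. A match is a description of these bases and not a measured binding site.

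**Figure D3:**
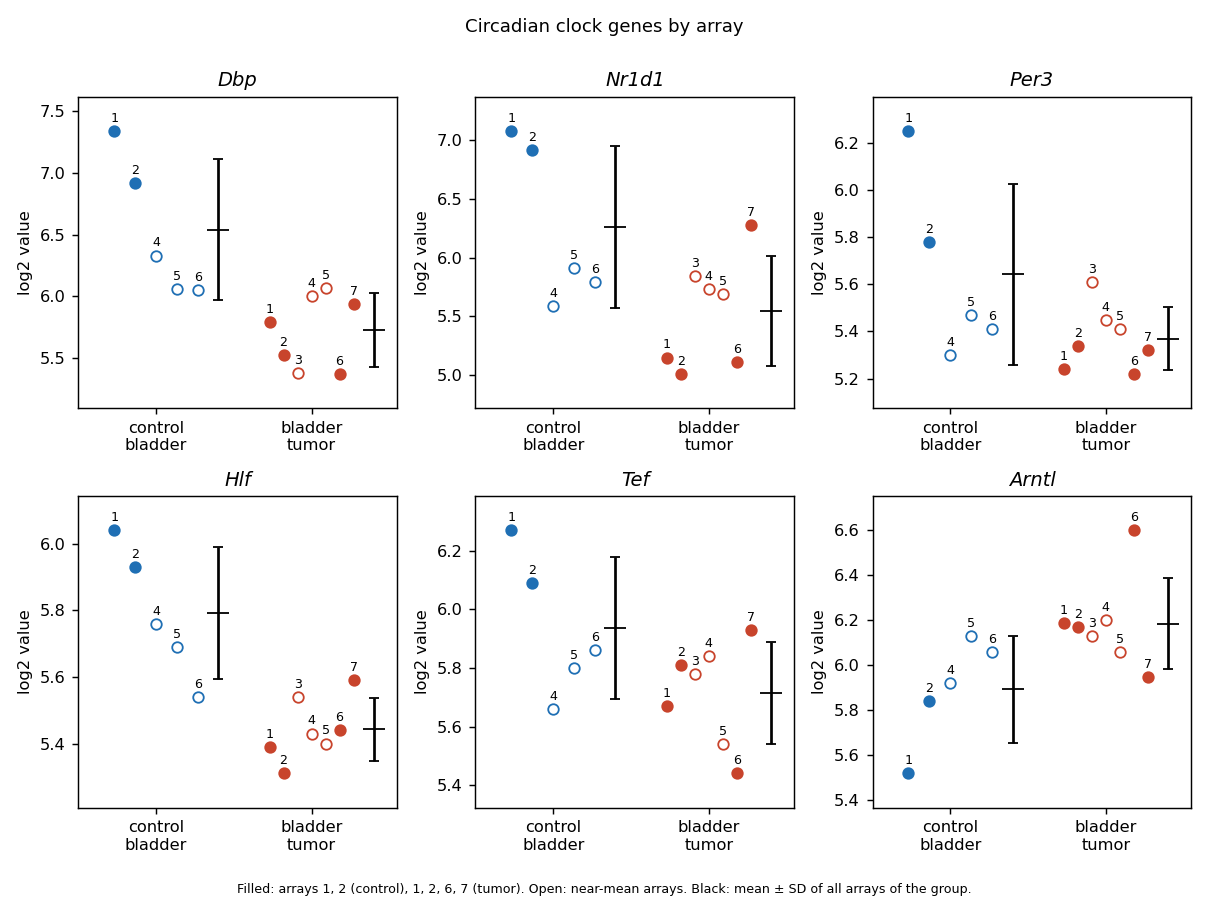
Log2 values (y axis) of 6 clock genes in each array of control bladder (blue) and bladder tumor (red), with the replicate number above each point; open circles are near-mean arrays and black bars the mean ± SD of the whole group. Control bladder 1 and 2 lie above the 4 filled tumor points for Dbp, Nr1d1, Per3, Hlf and Tef and below them for Arntl.

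Urothelial differentiation genes divided the tumors rather than the groups. Upk1a, which with Upk2 forms a pair within the plaque (chromosome 7), read 10.96 and 12.08 in control bladder 1 and 2. It read 7.57, 5.84 and 5.37 in bladder tumor 1, 2 and 6 and 13.93 in bladder tumor 7, the highest of the 12 arrays. The near-mean arrays read 7.83 to 8.41. The mean was 8.18 ± 2.80 in tumor (SD, n = 7) and 9.40 ± 1.98 in control (n = 5), a difference well within the spread. Upk2 read 6.90 and 7.64 in the controls, 5.95, 5.14 and 4.68 in bladder tumor 1, 2 and 6, and 9.50 in bladder tumor 7. Upk1b and Upk3a, which form the other pair, also read lowest in bladder tumor 6 (6.59 and 4.55) and highest in bladder tumor 7 (13.44 and 12.21). All 6 uroplakin genes had lower means in tumor over 12 arrays, where 47.0% of all genes did, and 4 of 6 over the 6 arrays, where 38.9% did. The median over the 6 arrays was -1.69, and it was -2.98 without bladder tumor 7 and -0.97 without bladder tumor 6. None of the 6 had an unadjusted p under 0.05.

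Some further genes of the luminal layer, chosen for their wide differences, had the same split. The whole list of 19 luminal keratins and differentiation factors did not lean one way: 9 had higher and 10 lower means over 6 arrays, with a median of -0.02 and 0 at an unadjusted p under 0.05. That median was -0.59 without bladder tumor 7 and 0.10 without bladder tumor 6. Snx31, a sorting protein that traffics uroplakins, read 7.57 and 8.35 in the controls, 5.67, 4.66 and 4.13 in bladder tumor 1, 2 and 6, and 10.33 in bladder tumor 7. Krt18, a simple epithelial keratin, read 8.31 and 8.33 in the controls and 5.10 to 6.10 in those 3 tumors, against 10.74 in bladder tumor 7. Pparg, a nuclear receptor of luminal differentiation, read 6.36 and 6.46, then 5.87, 4.98 and 4.66, then 6.87 in the same order. Sptssb, a subunit of serine palmitoyltransferase, spanned 5.42 in bladder tumor 6 to 14.63 in bladder tumor 7, the widest range of these genes. Krt5, the keratin of basal cells (chromosome 15), did not follow in bladder tumor 1, which read 8.07 beside 8.08 and 8.16 in the controls; bladder tumor 2 and 6 read 5.57 and 5.44 and bladder tumor 7 read 9.31. The 13 basal urothelium genes had a median of -0.01 over the 6 arrays. Tight junction genes (31 measured, median 0.02) and mucins (12 measured, median 0.06) stayed near the median of all genes.

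The detoxifying glutathione transferases Gstm1 and Gsta4, among the widest differences of their list, were also low in bladder tumor 2 and 6 and high in bladder tumor 7. Gstm1 (chromosome 3) read 11.71 and 11.95 in control bladder 1 and 2, 7.91, 6.28 and 5.54 in bladder tumor 1, 2 and 6, and 13.35 in bladder tumor 7. Gsta4, which acts on products of lipid peroxidation, read 9.77 and 10.08, then 9.04, 7.15 and 5.96, then 11.19 in the same order. In this list of 27 transferases and metallothioneins, 19 had lower means over the 6 arrays. An unadjusted p under 0.05 on that side was found for 1, and 3 were lower by at least 1. The shares of all genes were 38.9%, 2.14% and 1.11%. The median of the list was -0.11 over 6 arrays and 0.04 in the near-mean arrays, where 15 of 27 had higher means. Genes of the cytochrome P450 enzymes (94 measured) had a median of 0.08 and those of glucuronosyl- and sulfotransferases (32 measured) 0.11. Retinoid genes were divided: Rbp4 and Dhrs3, which carry and reduce retinoids, differed by -1.07 and -1.06 over 6 arrays, and Crabp1, a retinoic acid binding protein, read 9.13 in bladder tumor 6 and 4.84 to 5.27 in the other 5.

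**Figure D4:**
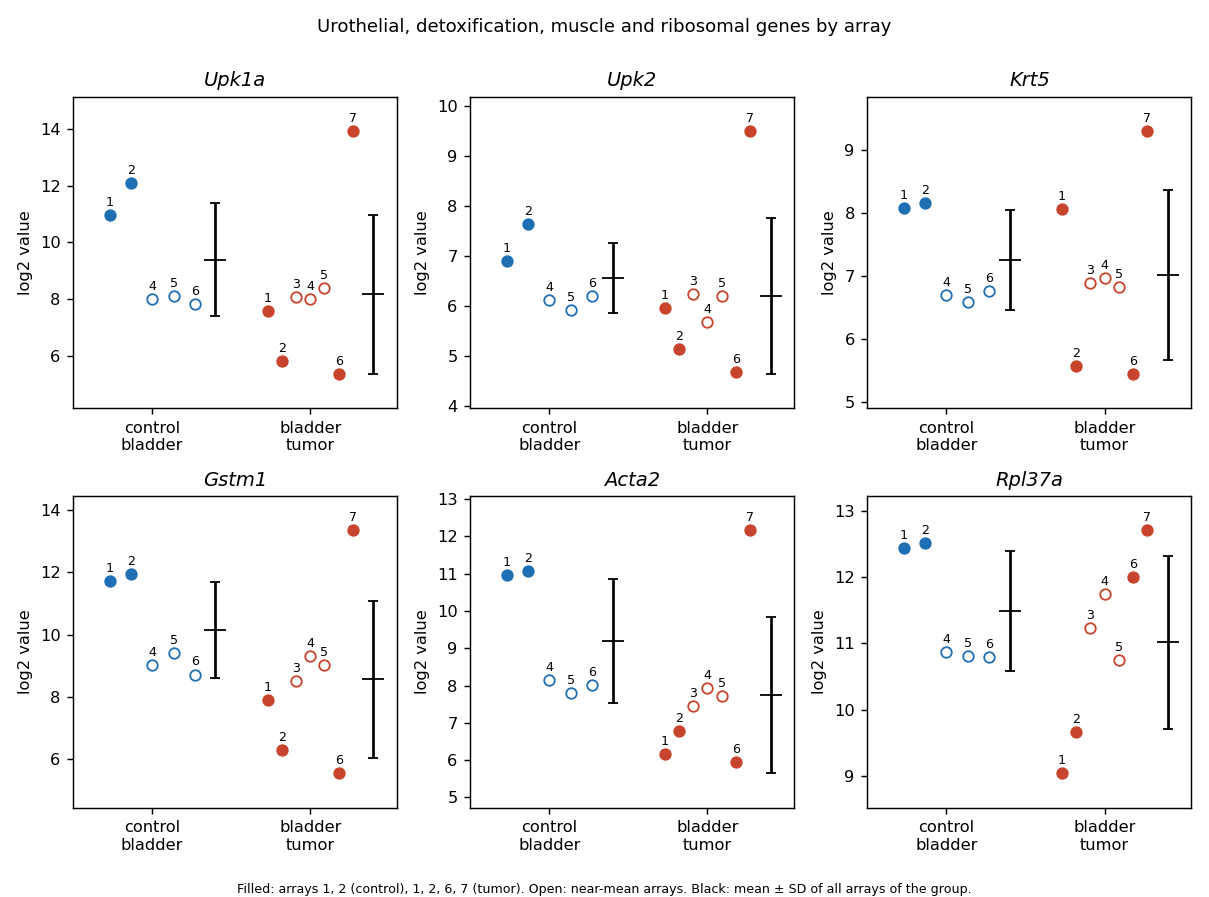
Log2 values (y axis) of 6 genes in each array of control bladder (blue) and bladder tumor (red), with the replicate number above each point; open circles are near-mean arrays and black bars the mean ± SD of the whole group. Bladder tumor 7 is the highest point in every panel, and bladder tumor 2 and 6 lie below control bladder 1 and 2 in each.

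Genes of myeloid cells had higher means in tumor. S100a9 and S100a8, the subunits of calprotectin in neutrophils, had the highest mean differences of all ranked genes. S100a9 (chromosome 3) read 4.35 and 4.85 in control bladder 1 and 2 and 5.59, 9.10, 11.97 and 9.45 in bladder tumor 1, 2, 6 and 7, so each tumor lay above both. The near-mean controls read 5.70 to 8.21 and the near-mean tumors 7.04 to 7.55, which overlapped. The difference was 4.43 over 6 arrays (standard error 1.30, adjusted p = 0.987) and 2.21 over 12 (standard error 0.86). S100a8 read 3.50 and 3.94 in the controls and 4.07, 6.94, 11.96 and 8.40 in the tumors, and differed by 4.12 and 1.89. Stfa1 and Stfa2l1, which code for stefins of neutrophils, differed by 1.20 and 1.31 over the 6 arrays, and Stfa2l1 by 0.66 without bladder tumor 6; stefin genes are near-identical copies whose signals are uncertain. Of 21 neutrophil genes, 20 had higher means over the 6 arrays, beside 61.1% of all genes, 7 had an unadjusted p under 0.05 on that side, beside 1.71%, and 14 lay above both controls in all 4 tumors, beside 7.79%. Over 12 arrays 19 had higher means and 4 had an unadjusted p under 0.05 on that side, beside 53% and 2.32% of all genes. The list's mean was 4.86 and 4.94 in control bladder 1 and 2 and 5.34, 5.76, 6.76 and 5.74 in the tumors. Its median of 0.66 over 6 arrays was 0.51 without bladder tumor 6, and it was -0.01 in the near-mean arrays.

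Macrophage genes gave a second group. C1qb, a chain of the complement component made by macrophages, read 4.82 and 4.51 in control bladder 1 and 2 and 4.89, 7.66, 7.22 and 6.90 in the 4 tumors, a difference of 2.0 over 6 arrays. In the near-mean arrays the sign was opposite, at -0.44. Ctss, the lysosomal protease cathepsin S, read 4.85 and 4.70 in the controls and 5.48 to 6.95 in the 4 tumors. Lyz2, lysozyme, read 8.30 and 7.84 in the controls and 6.87, 9.64, 10.63 and 10.15 in bladder tumor 1, 2, 6 and 7, so bladder tumor 1 lay below the controls. Fcgr3, an Fc receptor, and Lilr4b, an inhibitory receptor, were higher by 0.95 and 1.76 over 6 arrays. Of 25 macrophage and dendritic cell genes, 19 had higher means over 6 arrays, beside 61.1% of all genes. On the higher side 4 had an unadjusted p under 0.05, beside 1.71% of all genes, and 10 lay above both controls in all 4 tumors, beside 7.79%. The median was 0.44 over 6 arrays, 0.26 without bladder tumor 6 and 0.10 over 12. It was -0.08 in the near-mean arrays, with 8 genes higher and 17 lower. T and cytotoxic cell genes (19 measured) had a median of 0.08 over 6 arrays, with 0 at an unadjusted p under 0.05. Of 13 B and plasma cell genes 11 had higher means, led by Jchain, which joins secreted immunoglobulins: 5.46 and 4.95 in the controls and 7.81, 6.73, 5.41 and 6.75 in bladder tumor 1, 2, 6 and 7.

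Chemokines were not uniform. Ccl8 and Ccl6, which attract monocytes, were higher by 1.98 and 1.30 over the 6 arrays, led by bladder tumor 7 with 9.66 and 9.52. Cxcl13, which attracts B cells, read 10.95 in bladder tumor 2 and 9.41 in bladder tumor 7, and 6.57 and 6.25 in bladder tumor 1 and 6, on both sides of the controls at 7.15 and 6.89. Cxcl14, a chemokine of normal epithelia, was lower: 8.94 and 8.49 in the controls, 7.50, 6.09 and 6.00 in bladder tumor 1, 2 and 6, and 8.82 in bladder tumor 7. Of the 37 chemokine genes, 26 had higher means over 6 arrays, beside 61.1% of all genes. An unadjusted p under 0.05 was found for 1 on the higher and 2 on the lower side. For all genes these shares were 1.71% and 2.14%.

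Several genes of inflammation and matrix turnover read highest in bladder tumor 6, and they are grouped here for that reason. Ptgs2, the inducible cyclooxygenase, read 11.68 there and 5.43 to 5.79 in the other 5 arrays outside the near-mean set. Mmp3, stromelysin, read 10.58 against 4.92 to 5.73, Thbs4, a matricellular thrombospondin, 11.21 against 5.29 to 6.54, and Timp1, an inhibitor of metalloproteases, 8.22 against 4.81 to 5.75. Il1b and its decoy receptor Il1r2 read 7.46 and 7.99 there, beside at most 5.69 and 5.21 in the other 5, and all 4 tumors lay above both controls for these 2 genes. The mean differences of these genes over the 6 arrays were 1.69 for Ptgs2, 1.72 for Mmp3 and 1.85 for Thbs4, and were 0.17, 0.42 and 0.51 without bladder tumor 6. In the list of inflammatory cytokines, which holds Il1b and Ptgs2, 18 of 19 measured genes had higher means over 6 arrays, beside 61.1% of all genes. Of the 19, 1 had an unadjusted p under 0.05 on the higher side, beside 1.71% of all genes. Above both controls in all 4 tumors lay 7, beside 7.79%. Its median was 0.23 over 6 arrays, 0.20 without bladder tumor 6 and -0.07 in the near-mean arrays.

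Interferon-induced genes had moderately higher means in tumor. Oas1a, a sensor of double-stranded RNA, read 5.35 and 5.42 in control bladder 1 and 2 and 6.20, 7.04, 7.95 and 5.68 in bladder tumor 1, 2, 6 and 7. The near-mean tumors read 6.37 to 6.80 and the near-mean controls 6.00 to 6.14, without overlap. How many of all genes separated in these few arrays was not counted. Over all 12 arrays only bladder tumor 7 lay among the controls. The difference was 0.84 over 12 arrays (standard error 0.35) and 1.33 over 6. Oas2 and the chemokine Cxcl10 differed by 1.24 and 0.67 over 6 arrays and by 0.66 and 0.46 over 12. Of 27 interferon response genes, 23 had higher means over 6 arrays, with 0 at an unadjusted p under 0.05 on that side. Over 12 arrays 20 had higher means, with 4 at that level. All genes gave 61.1% and 1.71% over 6 arrays and 53% and 2.32% over 12. The list's median over 6 arrays was 0.29, and 0.16 without bladder tumor 6. Antigen presentation genes (16 measured) had a median of 0.03.

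**Figure D5:**
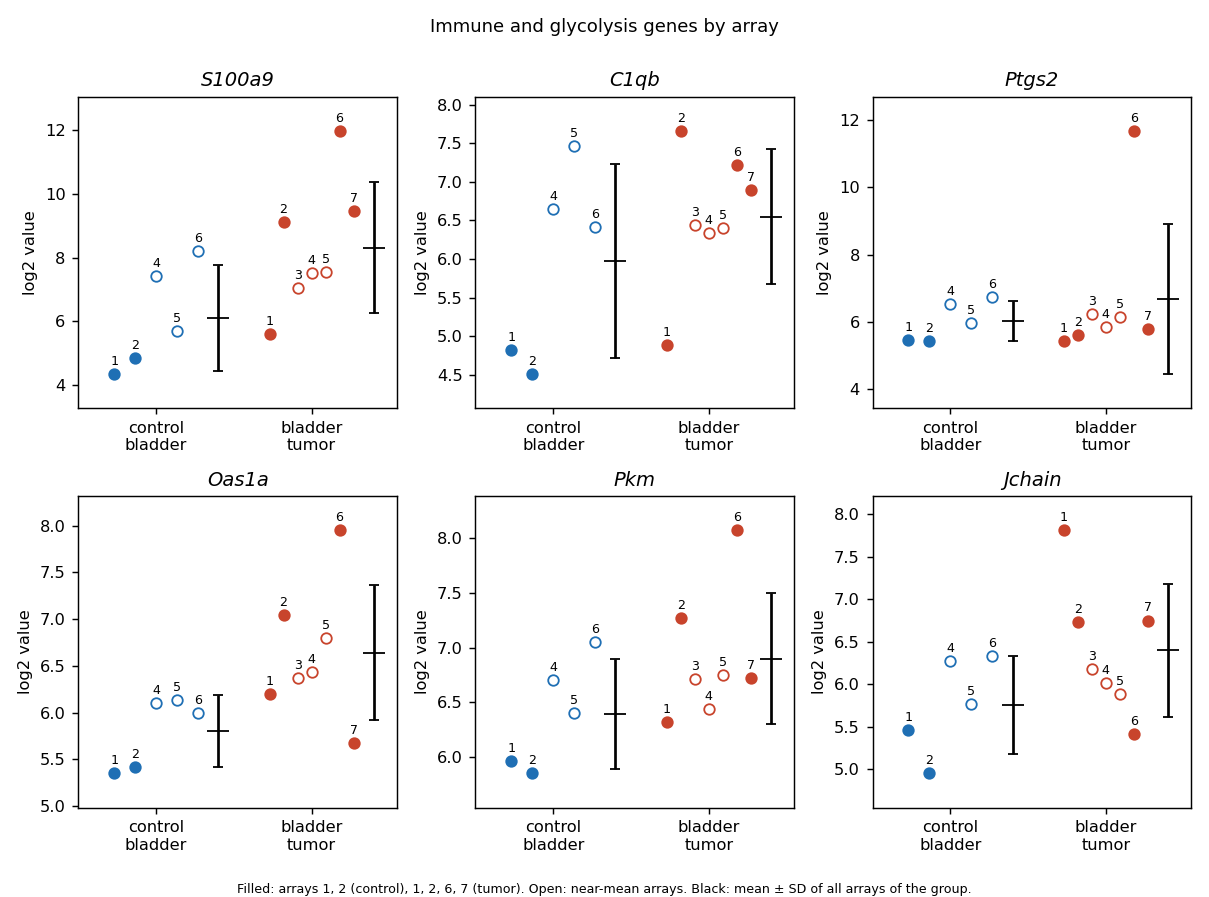
Log2 values (y axis) of 6 genes in each array of control bladder (blue) and bladder tumor (red), with the replicate number above each point; open circles are near-mean arrays and black bars the mean ± SD of the whole group. S100a9, C1qb, Oas1a and Pkm lie above control bladder 1 and 2 in all 4 filled tumor points, Jchain does so in 3 of 4, and Ptgs2 is high in bladder tumor 6 alone.

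Among regulators of the cell cycle, Cdkn2a, the locus of the inhibitor p16 and of p19Arf that cells without working Rb often express, read 5.51 and 5.38 in control bladder 1 and 2. It read 6.95, 6.86, 6.55 and 5.72 in bladder tumor 1, 2, 6 and 7, above both. The near-mean controls read 5.93 to 6.39 and the near-mean tumors 6.29 to 6.58. The difference was 0.61 over 12 arrays (standard error 0.23, unadjusted p = 0.0169) and 1.08 over 6. Ccne2, a cyclin that E2F factors induce, differed by 0.98 over 6 arrays. Of 20 genes of CDK inhibitors and the retinoblastoma family, 16 had higher means over 6 arrays, beside 61.1% of all genes. An unadjusted p under 0.05 on that side was found for 2, beside 1.71% of all genes. Replication-dependent histone genes had higher means in 21 of 24 over 6 arrays, 4 of them with an unadjusted p under 0.05. These counts stood beside the same 61.1% and 1.71% of all genes. H2bc12 read 4.69 and 4.92 in the controls and 6.56, 6.86, 6.51 and 5.15 in the tumors. H2ac10 was led by bladder tumor 6 at 9.17. The median of the histone list was -0.09 in the near-mean arrays. Histone genes of a cluster are near-identical copies, and their signals are uncertain. Over 6 arrays the means of the proliferation genes Mki67, Top2a and Depdc1a were higher by 2.18, 1.68 and 1.60. Over 12 arrays these differences were 0.94, 0.80 and 0.79, and in the near-mean arrays -0.04, 0.09 and 0.15. The p53 targets (18 measured) had a median of 0.08 over 6 arrays, with 10 higher and 8 lower and 0 at an unadjusted p under 0.05.

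Metabolic genes showed small differences that ran in one direction within a list. Of 22 hypoxia and glycolysis genes, 20 had higher means over 6 arrays, beside 61.1% of all genes, 4 with an unadjusted p under 0.05, beside 1.71%. The list leaned the other way in the near-mean arrays, with a median of -0.09 and 16 of 22 lower, Pkm (-0.08) and Pgk1 (-0.27) among them. Pkm, pyruvate kinase, read 5.96 and 5.85 in the controls and 6.32, 7.27, 8.07 and 6.72 in the tumors, and Tpi1, triosephosphate isomerase, 6.82 and 6.70 against 7.47, 8.06, 8.30 and 7.05. Pgk1 and Ldha were led by bladder tumor 6, at 8.68 and 7.87. The median was 0.32, and 0.10 without bladder tumor 6. Proteasome subunits had higher means in 38 of 41 over 6 arrays, with a median of 0.21 that was 0.08 without bladder tumor 6. Over 12 arrays 31 of 41 did, with a median of 0.06, where 53% of all genes had higher means. Aminoacyl-tRNA synthetases were higher in 27 of 32 over 6 arrays, with a median of 0.14 that was 0.07 without bladder tumor 6. Over 12 arrays 23 of 32 were higher, with a median of 0.05. In both lists 0 genes had an unadjusted p under 0.05 over the 6 arrays, and the near-mean arrays gave medians of -0.03 and -0.02. Cholesterol synthesis genes were higher in 15 of 17 (median 0.17), among them Sqle, squalene epoxidase, by 0.48. Genes of fatty acid synthesis and oxidation had lower means in 15 of 17 (median -0.13), beside 38.9% of all genes. They were led by Scd1, the stearoyl-CoA desaturase: 7.66 and 8.0 in the controls and 5.98, 5.87, 7.10 and 7.25 in the tumors.

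Genes of oxidative phosphorylation and of the ribosome leaned lower, where 38.9% of all genes had lower means over the 6 arrays. Of 87 respiratory chain genes, 62 had lower means over 6 arrays, with a median of -0.15 that was -0.26 without bladder tumor 7 and -0.02 without bladder tumor 1. Of 43 cytosolic ribosomal protein genes 33 did, with a median of -0.23 that was -0.44 without bladder tumor 7 and -0.05 without bladder tumor 1. Rpl37a read 12.43 and 12.51 in the controls and 9.04, 9.67, 12.00 and 12.70 in bladder tumor 1, 2, 6 and 7, and Rpl27 read 11.36 and 11.55 against 7.54, 8.44, 12.03 and 13.40. The tumors were thus divided, with bladder tumor 1 and 2 low and bladder tumor 6 and 7 near or above the controls. Ribosomal protein genes have many pseudogene copies, and their signals are uncertain.

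Several vessel and matrix genes had lower means in tumor. Tek, the angiopoietin receptor of endothelium (chromosome 4), read 6.77 and 6.43 in control bladder 1 and 2, 5.83 to 6.21 in the near-mean controls and 5.59 to 6.01 in all 7 tumors. The difference was -0.44 over 12 arrays (standard error 0.14, unadjusted p = 0.00455) and -0.84 over 6 (adjusted p = 0.894). Emcn, Sox17 and Pecam1, further endothelial genes, differed by -1.10, -0.59 and -0.50 over 6 arrays, each below both controls in all 4 tumors. Their signs were opposite in the near-mean arrays, at 0.18, 0.20 and 0.19, and Pecam1 differed by -0.11 over 12 arrays and by -0.26 over 6 without control bladder 1. Of 19 endothelial genes, 6 had an unadjusted p under 0.05 on the lower side over 6 arrays, beside 2.14% of all genes, and 0 on the higher side. Below both controls in all 4 tumors lay 7, beside 4.58% of all genes. The median was -0.10, and it was -0.03 without control bladder 1 and -0.29 without control bladder 2. Among small proteoglycans and fibulins, Prelp and Fbln1 differed by -2.11 and -1.47 over 6 arrays; Fbln1 read 7.38 and 6.85 in the controls and 5.22 to 6.43 in the tumors. Dcn, decorin, read at most 10.01 in the controls and in bladder tumor 6 and 7, which lay within 0.01 of each other, and 5.87 and 8.27 in bladder tumor 1 and 2. Lum, lumican, read 5.13 in bladder tumor 1 and 10.04 in bladder tumor 6, on both sides of the controls at 9.66 and 9.19. Sparcl1, an adhesion modulator of vessels and muscle, read 11.28 and 11.06 in the controls, 5.96 to 7.49 in bladder tumor 1, 2 and 6, and 11.36 in bladder tumor 7. Collagens (42 measured) had a median of 0.07 over 6 arrays and -0.10 in the near-mean arrays. Acta2 and Myh11, actin and myosin of smooth muscle, differed by -3.25 and -2.98 over 6 arrays, with bladder tumor 7 above both controls in each.

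A few genes separated the groups in all 12 arrays, by small amounts. Ropn1l, a sperm flagellum protein that had the smallest p of the ranked genes over 12 arrays, read 4.55 to 4.78 in the 5 controls (median 4.62) and 4.90 to 5.17 in the 7 tumors (median 4.99). The difference was 0.37 (standard error 0.07, adjusted p = 0.788), 0.38 over the 6 arrays and 0.39 in the near-mean arrays. Zfp174, a zinc finger gene, read 5.17 to 5.39 in controls and 4.61 to 5.02 in tumors. Mepce, the capping enzyme of 7SK RNA, read 6.67 to 6.88 and 6.97 to 7.54. Myot, a sarcomere protein, and Tram1l1 were higher by 0.39 and 0.45, with groups that did not overlap for Myot but met at 3.99 to 4.05 for Tram1l1. In the near-mean arrays these differences ran from -0.52 for Zfp174 to 0.57 for Tram1l1. The 5 genes were chosen by their p over 12 arrays, 6 of which are the near-mean ones, so a shared sign there was fixed by the choice and supports nothing. Drr1, a symbol of the platform annotation, differed by -1.26 over 12 arrays and by -1.40 in the near-mean arrays.

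Several other lists had medians near the background over the 6 arrays, whose median was 0.06 for all genes. Integrins (26 measured) had a median of -0.02, Wnt ligands and targets (39) -0.02, Notch pathway genes (18) -0.01, Hox genes (33) -0.06, fibroblast growth factors and receptors (25) 0.07 and serpins (60) 0.11. Markers of cell types foreign to the bladder wall were also read: the lists for lung epithelium (12 genes), liver plasma proteins (11), male accessory gland (13) and skeletal muscle (14) had means of 4.72 to 5.80 in the arrays, beside 4.64 to 5.26 for the chemosensory receptors. Over 6 arrays, 12 of 13 male accessory gland genes and 13 of 14 skeletal muscle genes had higher means in tumor. Of all genes 61.1% did. Medians of these lists were 0.25 and 0.24, with 0 genes at an unadjusted p under 0.05. Of the skeletal muscle genes 5 lay above both controls in all 4 tumors, beside 7.79% of all genes. The median of the skeletal muscle list was -0.13 in the near-mean arrays. The medians were 0.08 for lung epithelium and 0.06 for liver plasma proteins. Their part in the results was not tested. Bladder markers were present in control bladder 1 and 2, where the uroplakin list averaged 8.44 and 9.02, and the tumors ran from 5.13 in bladder tumor 6 to 10.30 in bladder tumor 7.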

How the data were processed

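RNA from 12 arrays was analysed: 7 of bladder tumor and 5 of control bladder, grouped by the sample labels. The deposited values are log2 intensities that the authors made with RMA in Expression Console of Affymetrix, per the notes on processing that the submitters gave in the labels, which state no version. RMA subtracts background, equalises the distributions of probe values between arrays and summarises probes, so differences in total RNA cannot be read from these values. The arrays were still not level. Medians over all rows ran from 5.07 in bladder tumor 6 to 5.42 in bladder tumor 1. Centring on array medians moved the median difference of all genes over 6 arrays from 0.06 to 0.005, so small list medians may hold such an offset. Values ran from 2.29 to 22.0, and 284 rows held values above 16, the limit of a 16-bit scanner, so a further step is possible for these rows. Through the platform annotation, 30604 rows had 1 symbol, 2146 had several and 33206 were unnamed here; gene IDs of 22818 rows were looked up in a table of GRCm38.p6, which updated 827. Of several rows of a gene, the row with the highest mean was kept (355 genes).

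Group means were fitted to 19 arrays in limma 3.58.1 under R 4.3.3 (lmFit, eBayes), with the treated bladders (n = 3) and metastases (n = 4) sharing the estimate of the spread, and again without the 8 near-mean arrays of the series. The two-sided p-values had a Benjamini-Hochberg adjustment over all 30142 genes, with 0.05 as the limit for a called gene. The fits were tested on simulated data. The labels do not state that replicate numbers pair the samples, so the main fits used no pairing. The comparison, the 75 gene lists and the rules were chosen with earlier results of these data known. Lists are described by counts and medians, without a test of the list. Named genes were the 10 highest and 10 lowest differences and the 5 smallest p in each fit, up to 4 members with the widest 6-array difference per list, and a fixed set (Xist, Eif2s3y, Uty, Kdm5d, Rb1, Rbl1, Acta2, Upk1a, Upk2, Krt5 and Cdkn2a); predicted, small RNA, immunoglobulin and chemosensory genes were not ranked. Genes chosen after their values were seen are said to be so. Near-mean arrays are those whose deviations correlate with no other array above 0.2. The alternatives were to fit the 2 groups alone, to weight arrays, to use a trend and robustness in the prior, to repeat quantile normalization, to centre on medians, to drop dim genes, to average the rows of a gene, to drop genes that are predicted, small RNA or chemosensory, to block on the replicate number and to omit each array in turn. The near-mean arrays alone, and that set as a covariate, were added after seeing the data.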

Additional observations from a re-analysis of the deposited data

Results flagged for a closer look

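In a group of 5 or 7 arrays, the lowest or highest value was set against the gap to its neighbour (Dixon's criterion), and 28 of 206 groups of values passed. Chance passes about 1 in 20 such groups, and genes that vary together pass together. None of these values was left out of the results above.

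Bladder tumor 7 was the highest tumor for urothelial genes: Upk1a read 13.93 (next 8.41), Upk2 9.50 (next 6.23), Upk3a 12.21 (next 7.53), Krt18 10.74 (next 6.56), Snx31 10.33 (next 6.15) and Sptssb 14.63 (next 9.39). It was also highest for muscle and stromal genes: Acta2 at 12.16 (next 7.93), Myh11 at 11.32 (next 6.99), P2rx1 at 8.82 (next 6.04), Sparcl1 at 11.36 (next 8.01), Scn7a at 7.47 (next 6.10), Hhip at 7.75 (next 5.83) and Id2 at 7.66 (next 6.15).

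Bladder tumor 6 was the highest tumor for inflammatory genes: Ptgs2 read 11.68 (next 6.23), Mmp3 10.58 (next 5.95), Timp1 8.22 (next 5.75), Thbs4 11.21 (next 6.54), Il1b 7.46 (next 5.69) and Il1r2 7.99 (next 5.34). It was highest as well for Crabp1 (9.13, next 5.69), Pgk1 (8.68, next 6.44), Ldha (7.87, next 6.80), H2ac10 (9.17, next 7.20), Depdc1a (8.06, next 6.43), Nfil3 (6.81, next 5.51) and Arntl (6.60, next 6.20).

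Bladder tumor 1 was the lowest tumor for Dcn, at 5.87 (next 8.25), and control bladder 6 the lowest control for Shh, at 5.06 (next 5.72).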

How the results depend on the processing

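Over 12 arrays limma called 0 genes in the main fit and under every alternative tried, with 611 to 3141 genes at an unadjusted p under 0.05. Over the 6 arrays it called 1 gene; array weights called 48 (6 higher, 42 lower), and leaving out 1 array gave 1 to 59, the 59 without bladder tumor 7 and 2 without control bladder 2. The replicate number as a block gave 151 called genes over 6 arrays and 0 over 12. Samples of the same number had deviations from their group means that correlated at -0.42 to -0.01 over 5 pairs. The pairs numbered 4, 5 and 6 hold near-mean arrays, which by definition correlate weakly with every other array. These correlations therefore cannot tell whether the numbers pair the samples, and the labels state no pairing. Genes that differed by at least 1 numbered 63 over 12 arrays; array weights gave 192, the block 201, dropping predicted, small RNA and chemosensory genes 22, and the near-mean arrays alone 110, while leaving out 1 array gave 34 (without control bladder 2) to 176 (without bladder tumor 7); without control bladder 4, 5 or 6 or bladder tumor 6 it was 108 to 120. Over 6 arrays the number was 548; array weights gave 961, the block 1793, dropping predicted, small RNA and chemosensory genes 237, and leaving out 1 array 457 to 1004, the latter without bladder tumor 7. The share on the higher side also moved: of the 63 genes 41.3% were higher, without bladder tumor 1 63.2%, without bladder tumor 7 20.4%, and without predicted, small RNA and chemosensory genes 9.09%; of the 548 genes 39.1% were higher, and without bladder tumor 1 66.2%. Of 103 named genes over 12 arrays, 49 changed sign in the near-mean arrays alone and at most 7 when 1 array was left out; over 6 arrays none did under the alternatives tried, and Xist stayed called in each. Of the list medians under all alternatives, 2870 moved by less than the spread between arrays and 53 by more. With 2 controls, both reading high for Xist, the 6-array differences cannot be told apart from sex, and the number of arrays, not a count of molecules, limits their precision.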

Other observations

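Immediate early genes, which code for transcription factors that stimulated cells switch on quickly, had higher means in bladder tumor 1, 2, 6 and 7 than in control bladder 1 and 2 for 18 of 19 measured members, with a median difference of 0.26 on the log2 scale beside 0.06 for all genes. Of all genes 61.1% had higher means. Among the immediate early genes limma called none, and 1 had an unadjusted p under 0.05 on the higher side, beside 1.71% of all genes. The median was 0.19 without bladder tumor 6 and 0.06 in the near-mean arrays. Genes of the response to amino acid shortage had higher means in 17 of 21, with a median of 0.25; limma called none, 0 had an unadjusted p under 0.05, and the median was 0.09 without bladder tumor 6.

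Markers of pericytes and interstitial cells, which support vessels and pace smooth muscle, had lower means in 9 of 10 over the same 6 arrays. Of all genes 38.9% did. In the list, 3 had an unadjusted p under 0.05 on the lower side, beside 2.14% of all genes, and limma called none. The median was -0.48, and leaving out 1 array gave -0.63 (without bladder tumor 7) to -0.26 (without control bladder 1). It was -0.02 in the near-mean arrays. Complement and coagulation genes had higher means in 12 of 18 over the 6 arrays, close to the 61.1% of all genes. An unadjusted p under 0.05 was found for 2 on the higher and 1 on the lower side. For all genes these shares were 1.71% and 2.14%. The median of this list was 0.39, and it was 0.23 without bladder tumor 6 and 0.01 in the near-mean arrays.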
